A study of Mus musculus with 18 samples.

Results

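The expression of 8 genes of the cholesterol pathway (Stard4, Hmgcs1, Sqle, Idi1, Insig1, Srebf2, Fdft1 and Lss) was examined in mouse mammary tumors and normal mammary glands. They were taken by symbol from the 55450 genes of the count file, and each symbol matched 1 gene. The set was chosen by the measured level of Stard4, which was lower in B1/P/Rbf tumors than in P/Rbf tumors. That contrast is therefore given below for all 8 genes as a description, without a test. By function the set holds 5 enzymes of cholesterol synthesis (Hmgcs1, Idi1, Fdft1, Sqle and Lss), 2 regulators of the pathway (Srebf2 and Insig1) and 1 sterol transfer protein of the cytosol (Stard4). None of the 8 is a receptor for lipoprotein uptake. All 8 passed the filter on low counts, and the lowest count of any of them in any sample was 135, for Stard4.

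Cells make cholesterol from acetyl-CoA through mevalonate, isoprenoids, squalene and lanosterol, and they also take it up with lipoproteins. SREBP-2, the product of Srebf2, is a membrane-bound transcription factor that is released when sterols in the endoplasmic reticulum are low and that activates genes of synthesis and uptake. INSIG proteins hold it back in the endoplasmic reticulum when sterols are high. Insig1 and Stard4 are themselves known targets of SREBP-2, as are the enzymes named above. In the mammary gland, lipid synthesis serves both adipocytes and the epithelium that secretes milk fat.

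RNA was sequenced from 18 C57Bl/6 female mice, 1 sample per mouse. The tumors arose after adenovirus carrying Cre under the CMV promoter was injected through the nipple into the ducts of adult mice. B1/P/Rbf mice carried Brca1 fl/fl, Trp53 fl/fl and the TgK18GT121 transgene (n = 5), B1/P mice carried Brca1 fl/fl and Trp53 fl/fl (n = 5), and P/Rbf mice carried Trp53 fl/fl and TgK18GT121 (n = 5). All 3 tumor groups thus share the floxed Trp53 alleles and the virus. The transgene expresses T121, an N-terminal fragment of the SV40 large T antigen that inhibits pRb, p107 and p130, from the keratin 18 promoter once Cre has acted, so its expression follows cells that use this promoter. Normal glands came from 3 wild-type mice, and the sources used here do not state whether these received virus. Age at collection is not stated for single samples.

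Each sample held 27661173 to 37794889 expected counts in all. Brca1 was at 44.9 to 116 CPM (counts scaled by TMM to a common library total) in P/Rbf tumors, against 8.13 to 27.9 CPM for B1/P and 21.1 to 45.0 CPM for B1/P/Rbf, of which tumor 3 reached the P/Rbf range. The study describes the Brca1 loss of that tumor, measured by RT-qPCR, as partial. It was kept in its group by its label. Without it, Stard4 in B1/P/Rbf against B1/P was -2.27 (adjusted p = 0.00627, edgeR), and 3 calls among the 8 genes were lost, namely Fdft1 in B1/P/Rbf against B1/P (0.0544) and against gland (0.0513) and Srebf2 in B1/P against gland (0.0522). The glands held 4.61 to 5.99 CPM. Counts over a whole gene include reads from the part that Cre leaves behind. Trp53 was at 6.75 to 24.3 CPM in the tumors and 54.4 to 71.8 CPM in the glands. The labelled tissues differed in cell make-up. Summed adipocyte markers (7 genes) were at 19400 to 29300 CPM in glands and at 3.08 to 266 CPM in tumors, summed skeletal muscle markers (6 genes) at 23000 to 45500 CPM in glands and 0.23 to 591 CPM in tumors, lymphocyte markers (7 genes) at 369 to 510 CPM in glands and 1.75 to 31.1 CPM in tumors, and endothelial markers (6 genes) at 382 to 444 CPM in glands and 96.6 to 483 CPM in tumors. Luminal epithelial markers (7 genes) were at 6430 to 12900 CPM in P/Rbf tumors, 3130 to 6740 CPM among B1/P/Rbf and 852 to 3400 CPM among B1/P tumors. P/Rbf tumor 3 had the fewest luminal (6430 CPM) and the most basal epithelial marker counts (1450 CPM) of its group. In these bulk samples, fewer cells of a type and less RNA per cell cannot be told apart, and the part of cell make-up in the results was not tested. The study states that the samples were pooled for sequencing. An earlier analysis of these data inferred, from values the study lists, that the libraries fall into 2 sets which the labels do not name. Set 1 would hold every B1/P/Rbf tumor with tumors 1 to 3 of B1/P, and set 2 the remaining pair of B1/P tumors (4 and 5) with all glands and P/Rbf tumors. B1/P/Rbf would then never share a set with P/Rbf or gland, and genotype and set could be separated only through the B1/P tumors.

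Stard4 (chromosome 18, 33199355 to 33213862, minus strand, GRCm38) encodes a cytosolic protein that carries cholesterol between membranes. Its expression was 11.1, 3.64, 10.9, 8.14 and 8.31 CPM in B1/P/Rbf tumors 1 to 5. In B1/P tumors it was 31.6, 27.1, 21.9, 52.7 and 55.7 CPM, and in P/Rbf tumors 80.1, 81.6, 13.0, 68.9 and 56.2 CPM. The glands held 14.4, 18.3 and 16.0 CPM. Every B1/P/Rbf tumor lay below every other sample of the study, and 1 P/Rbf tumor (tumor 3) fell below the glands while the other 4 lay above all glands and all B1/P tumors. Group means were 8.44 ± 3.03 CPM (SD, n = 5) for B1/P/Rbf, 37.8 ± 15.4 for B1/P (n = 5), 60.0 ± 28.2 for P/Rbf (n = 5) and 16.2 ± 1.96 for normal gland (n = 3).

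Stard4 was 4.48-fold lower in B1/P/Rbf tumors compared with B1/P (log2 fold change -2.16, SE 0.42, adjusted p = 0.00287, edgeR quasi-likelihood test with Benjamini-Hochberg adjustment over 19186 genes). This test uses the same 5 B1/P/Rbf tumors on which Stard4 was picked, so it is not independent of that choice. Within set 1, B1/P/Rbf tumors and the 3 tumors of B1/P had mean log2 CPM values of 2.99 and 4.74, a difference of -1.75 (exact two-sided permutation test p = 0.0179, the smallest that 5 against 3 samples allow). This permutation test reuses the same B1/P/Rbf tumors and was added after the data had been seen, so it is no independent support. The contrast by which Stard4 was chosen, B1/P/Rbf against P/Rbf, was -2.83 (SE 0.43), or 7.11-fold lower, and -1.82 with a term for the library sets. P/Rbf and B1/P tumors overlapped, with a difference of 0.67 (SE 0.41, adjusted p = 0.256), and within set 2 alone of -0.10 (n = 5 and 2, exact permutation p = 1). The P/Rbf tumors are the other side of the contrast used for the choice, so neither test of them is independent of it.

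Against normal gland, Stard4 was 1.89 higher in P/Rbf tumors on the log2 scale (SE 0.51, adjusted p = 0.00763, edgeR). The exact permutation test of the same samples, all of set 2, did not pass (difference of mean log2 CPM 1.64, p = 0.143, smallest possible 0.0179). These 5 tumors, like those of B1/P/Rbf, are the ones by which Stard4 was chosen, so tests against gland in either group are not independent of the choice. Only B1/P against gland compares none of them, though they enter its p value through the spread estimated in the shared fit of 18 samples. Stard4 did not pass the test in B1/P tumors (1.22, SE 0.49, adjusted p = 0.0645) or in B1/P/Rbf tumors (-0.94, SE 0.46, adjusted p = 0.118), although neither group overlapped the glands. The B1/P comparison passed in 6 of 25 alternatives, namely by DESeq2 (adjusted p = 0.0359), without TMM scaling (0.017), in a fit of the 2 groups alone (0.0267), with a term for the library sets (1.74, adjusted p = 0.0261), and without P/Rbf tumor 3 (0.0171) or B1/P tumor 3 (0.0464). Its adjusted p ran up to 0.168. With a term for the library sets, the B1/P/Rbf difference from gland was 0.07, with an adjusted p of 0.968, so its sign depended on the setting. It passed as lower in a fit of the 2 groups alone (adjusted p = 0.0485) and without P/Rbf tumor 3 (0.0399).

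**Figure D1:**
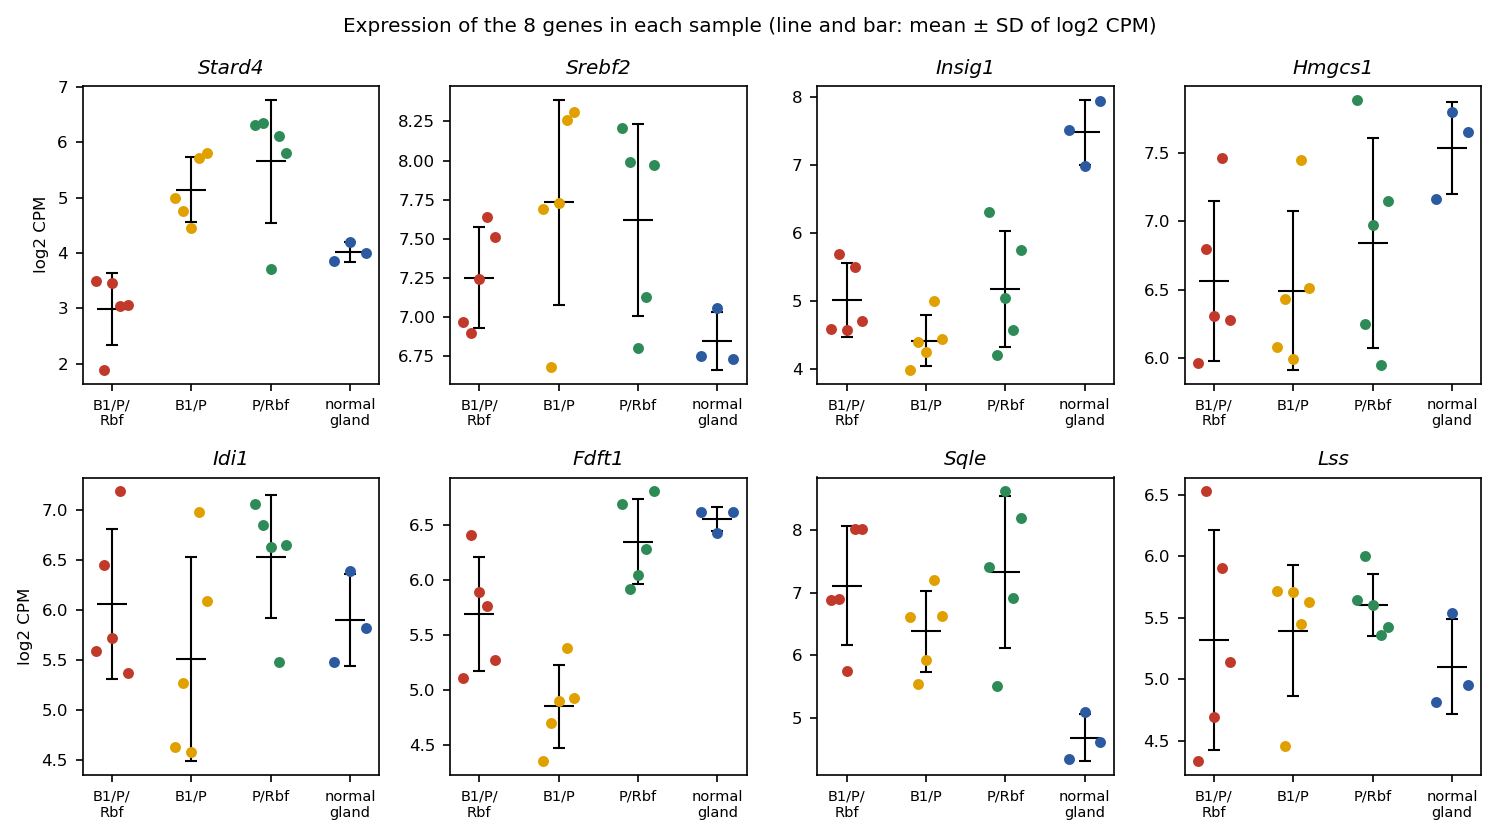
Expression of each of the 8 genes in every sample, as log2 CPM with a prior count of 2, by group (5, 5, 5 and 3 samples); points are samples, and the line and bar are the group mean ± SD. The vertical scale differs between panels. The 5 B1/P/Rbf tumors lie below all other samples for Stard4, and the 3 glands lie above all tumors for Insig1 and below all tumors for Sqle.

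Srebf2 (chromosome 15, 82147181 to 82205379), the gene of SREBP-2, was at 125, 120, 151, 199 and 182 CPM in B1/P/Rbf tumors. B1/P tumors held 207, 103, 212, 306 and 318 CPM. P/Rbf tumors held 296, 254, 112, 140 and 251 CPM, and the glands 108, 133 and 106 CPM. All 3 tumor groups overlapped one another. No tumor comparison passed the test (B1/P/Rbf against B1/P -0.56, SE 0.30, adjusted p = 0.218, and P/Rbf against B1/P -0.12, SE 0.30, adjusted p = 0.809, both edgeR). Srebf2 was higher in B1/P tumors than in gland (0.98, SE 0.36, adjusted p = 0.0438), although B1/P tumor 2 fell below all glands, and the call was lost in 12 alternatives, with adjusted p values from 0.00771 to 0.138 over all 25. The other 2 tumor groups did not pass against gland (P/Rbf 0.86, adjusted p = 0.0674, and B1/P/Rbf 0.42, adjusted p = 0.364, edgeR), though P/Rbf did in 5 of the 25. The B1/P/Rbf difference ran from 0.31 to 1.27 over the 25 and passed in none.

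Insig1 (chromosome 5, 28071363 to 28078662) encodes the endoplasmic reticulum protein that retains SREBP-2. It was at 183, 127 and 248 CPM in the glands. The tumors held far less, namely 15.8, 21.1, 19.0, 32.3 and 21.7 CPM among B1/P, 24.0, 51.9, 23.9, 45.2 and 26.1 CPM among B1/P/Rbf, and 79.8, 18.4, 33.2, 23.8 and 53.8 CPM among P/Rbf tumors. No tumor reached the lowest gland. Against gland, Insig1 fell by 3.08 (SE 0.42, adjusted p = 3.76e-05) on the log2 scale in B1/P tumors, fell by 2.44 (SE 0.41, adjusted p = 0.000231) in B1/P/Rbf and fell by 2.15 (SE 0.41, adjusted p = 0.000636) in P/Rbf tumors (edgeR). The call for B1/P/Rbf was lost with a term for the library sets (-1.91, adjusted p = 0.0601). Between tumor groups Insig1 did not pass (P/Rbf against B1/P 0.93, SE 0.37, adjusted p = 0.0839, or 1.12 and 0.0369 without P/Rbf tumor 2, and B1/P/Rbf against B1/P 0.64, SE 0.37, adjusted p = 0.248). All 7 adipocyte, 6 skeletal muscle and 7 lymphocyte markers were called lower in each tumor group against gland, as were 3 of 6 endothelial markers in B1/P/Rbf and in B1/P and 4 of 6 in P/Rbf tumors. Their part in this and the other differences from gland was not tested.

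Insig1 and Hmgcs1 deviated together most closely among the 8 genes within tumor groups (described below), and the sequences before their starts are shown for that reason. RefSeq promoters (GRCm38.p6) matched 5 of the 8 genes (Hmgcs1, Idi1, Insig1, Srebf2 and Lss). The 250 bases before the RefSeq start were searched on both strands for TCACNCCAC, a form of the sterol regulatory element that SREBP binds, CCAAT, the core of the NF-Y site, and GGGCGG, the core of the Sp1 site. Capitals mark matches on either strand, so that ATTGG and CCGCCC are matches read on the opposite strand. The Hmgcs1 stretch is chr13:119690101-119690350 and the Insig1 stretch chr5:28071162-28071362, both on the plus strand and both upstream of the annotated gene.
Hmgcs1: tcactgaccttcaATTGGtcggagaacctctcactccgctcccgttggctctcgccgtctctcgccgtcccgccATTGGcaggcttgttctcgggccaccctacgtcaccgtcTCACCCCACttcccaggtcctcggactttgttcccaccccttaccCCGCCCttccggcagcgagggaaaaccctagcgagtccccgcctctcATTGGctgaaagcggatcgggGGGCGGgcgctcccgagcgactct
Insig1: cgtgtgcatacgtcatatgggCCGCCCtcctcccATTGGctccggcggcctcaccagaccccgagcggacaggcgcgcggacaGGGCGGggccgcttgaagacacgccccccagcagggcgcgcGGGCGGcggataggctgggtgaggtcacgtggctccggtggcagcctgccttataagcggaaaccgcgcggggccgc
Hmgcs1 held 1 match to TCACNCCAC, the bases TCACCCCAC from 137 to 129 bases before its start, with 3 CCAAT and 2 GGGCGG matches. Insig1 held no TCACNCCAC, 1 CCAAT and 3 GGGCGG matches. In Idi1, Srebf2 and Lss there was no TCACNCCAC match either, and each held at least 1 CCAAT and 1 GGGCGG match. Over 32851 mouse promoters of that length, 1.05% held TCACNCCAC, 33.8% CCAAT and 32.7% GGGCGG. A match describes letters only.

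Hmgcs1 (chromosome 13, 119690379 to 119708260) encodes HMG-CoA synthase of the cytosol, an early step on the way to mevalonate. It was at 62.3, 111, 79.1, 176 and 77.7 CPM in B1/P/Rbf tumors. B1/P tumors held 67.5, 85.9, 63.5, 175 and 91.0 CPM, P/Rbf tumors 237, 75.9, 125, 61.7 and 142 CPM, and glands 143, 223 and 201 CPM. In each tumor group 4 of 5 tumors lay below all glands, and 1 tumor reached the glands. None of the comparisons passed (edgeR): against gland, B1/P was at -0.97 (SE 0.42, adjusted p = 0.0863), B1/P/Rbf at -0.90 (SE 0.42, adjusted p = 0.104) and P/Rbf at -0.56 (SE 0.43, adjusted p = 0.315). The B1/P/Rbf comparison passed without its tumor 4 (-1.20, adjusted p = 0.0358) and in a fit of the 2 groups alone (0.0481), and was -0.02 with a term for the library sets (adjusted p = 0.993). That of B1/P passed without its tumor 4 (-1.30, adjusted p = 0.0236). Between tumor groups the differences were 0.07 (SE 0.37, adjusted p = 0.926) for B1/P/Rbf and 0.41 (SE 0.37, adjusted p = 0.46) for P/Rbf, each against B1/P. Over the alternatives they ran from -0.23 to 0.49 and from -0.05 to 0.74, so both signs turned, and none passed. Within set 2 the P/Rbf difference was -0.14.

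Idi1 (chromosome 13, 8885501 to 8892451), the isomerase that supplies dimethylallyl diphosphate for isoprenoid chains, varied more within groups than between them. B1/P/Rbf tumors held 48.0, 87.4, 52.5, 146 and 41.3 CPM, B1/P tumors 24.7, 38.4, 23.9, 126 and 68.2 CPM, P/Rbf tumors 134, 115, 99.3, 44.7 and 101 CPM, and glands 44.6, 83.5 and 56.3 CPM. No comparison of Idi1 passed in the fit of all samples, with adjusted p values (edgeR) of 0.576 for B1/P/Rbf and 0.222 for P/Rbf against B1/P, and 0.337 to 0.875 against gland. B1/P/Rbf against B1/P was 0.41 (SE 0.46), 1.37 with a term for the library sets (adjusted p = 0.0518), and 1.24 within set 1, where the groups did not overlap (n = 5 and 3, exact permutation p = 0.0536). P/Rbf against B1/P was 0.81 (SE 0.46) and passed without B1/P tumor 4, the highest of its group (1.35, adjusted p = 0.0417). It was 0.02 with a term for the library sets (adjusted p = 0.987) and -0.00 within set 2 (n = 5 and 2, exact permutation p = 1). With a term for the library sets, B1/P/Rbf tumors were higher than gland (2.03, adjusted p = 0.042).

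Fdft1 (chromosome 14, 63145150 to 63179578, minus strand) encodes squalene synthase, the first step committed to sterols. It was the enzyme of the set that differed between tumor groups. B1/P tumors held the least, 20.3, 26.0, 29.8, 41.5 and 30.5 CPM. B1/P/Rbf tumors held 34.5, 85.0, 59.4, 54.2 and 38.6 CPM, P/Rbf tumors 103, 60.3, 66.3, 77.4 and 112 CPM, and glands 98.6, 86.4 and 98.1 CPM. All P/Rbf tumors lay above all B1/P tumors, and 3 of 5 B1/P/Rbf tumors did. Fdft1 was 2.83-fold higher in P/Rbf than in B1/P tumors (log2 fold change 1.5, SE 0.26, adjusted p = 0.00142, edgeR), and 1.84-fold higher in B1/P/Rbf tumors against the same B1/P tumors (0.88, SE 0.26, adjusted p = 0.027).

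The P/Rbf difference of Fdft1 was called in all 25 alternatives (adjusted p 1e-06 to 0.0339) and was 1.19 on the log2 scale within set 2 (n = 5 and 2, exact permutation p = 0.0476, the smallest possible). The B1/P/Rbf difference was 1.04 within set 1 (n = 5 and 3, exact permutation p = 0.0357), and its call was lost in a fit of the 2 groups alone (adjusted p = 0.0612) and without B1/P/Rbf tumor 2 (0.0857), B1/P/Rbf tumor 3 (0.0544) or B1/P tumor 1 (0.0637). Of 7 luminal epithelial markers, 2 were called higher in B1/P/Rbf and 4 in P/Rbf tumors against B1/P (median log2 fold change 1.22 and 1.51), and of 7 proliferation markers 3 and 4 (0.76 and 1.12). Their part in the Fdft1 difference was not tested. Against gland, Fdft1 fell in B1/P tumors by 1.67 (SE 0.29, adjusted p = 0.000299) and in B1/P/Rbf tumors by 0.80 (SE 0.29, adjusted p = 0.0386), both without overlap. In P/Rbf tumors it was -0.17 (SE 0.29, adjusted p = 0.674), or 0.11 without TMM scaling. The B1/P/Rbf call was lost without TMM scaling (adjusted p = 0.254), without the filter on low counts (0.0598), with a term for the library sets (0.697), without any 1 of the glands (0.0927 to 0.113) and with 5 of the single tumors left out (B1/P/Rbf tumors 1, 3, 4 and 5 and P/Rbf tumor 1, 0.0513 to 0.0822). The gene overlaps Ctsb on the opposite strand, and the part of reads from Ctsb in these values was not tested.

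Sqle (chromosome 15, 59315077 to 59331192) encodes squalene epoxidase, which turns squalene into the precursor of the sterol ring. The glands held 20.2, 34.1 and 24.6 CPM. B1/P/Rbf tumors held 117, 120, 53.9, 262 and 259 CPM, tumors of B1/P 98.3, 46.7, 61.0, 147 and 99.2 CPM, and P/Rbf tumors 172, 45.5, 395, 121 and 293 CPM. All 15 tumors lay above all 3 glands, in contrast to Insig1. Sqle rose by 2.63 (SE 0.65, adjusted p = 0.00454) in B1/P/Rbf, by 1.78 (SE 0.62, adjusted p = 0.035) in B1/P and by 2.96 (SE 0.66, adjusted p = 0.0021) in P/Rbf tumors on the log2 scale (edgeR). Over the 25 alternatives the B1/P/Rbf rise ran from 2.39 to 3.47. The B1/P call was lost by limma-voom with quantile scaling (adjusted p = 0.0504), without B1/P tumor 1, 4 or 5 (0.0524, 0.0709 and 0.0521) and without any 1 of the glands (0.0603 to 0.125). Summed proliferation markers (7 genes) were also higher in tumors (842 to 3850 CPM) than in glands (159 to 175 CPM), and their part was not tested. The tumor groups overlapped for Sqle, and their differences from B1/P did not pass (P/Rbf 2.27-fold higher, adjusted p = 0.107, and B1/P/Rbf 1.8-fold, adjusted p = 0.265). The P/Rbf difference passed without P/Rbf tumor 2 (1.44 on the log2 scale, adjusted p = 0.0366).

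Lss (chromosome 10, 76531588 to 76557138) encodes lanosterol synthase, which closes the sterol ring. It was at 52.6, 21.9, 52.3, 43.6 and 49.5 CPM in B1/P tumors. B1/P/Rbf tumors held 20.0, 92.4, 25.8, 59.6 and 35.1 CPM, P/Rbf tumors 49.8, 63.8, 48.5, 41.1 and 42.9 CPM, and glands 27.9, 46.6 and 30.9 CPM. The groups overlapped in every comparison. Group means ran from 35.1 ± 10.0 CPM (n = 3) in gland to 49.2 ± 8.91 CPM (n = 5) in P/Rbf, a range that the SD of 29.7 CPM in B1/P/Rbf tumors covers. No test of Lss passed, with adjusted p values (edgeR) from 0.371 to 0.902. The largest difference was 0.49 (SE 0.41), in P/Rbf against gland.

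**Figure D2:**
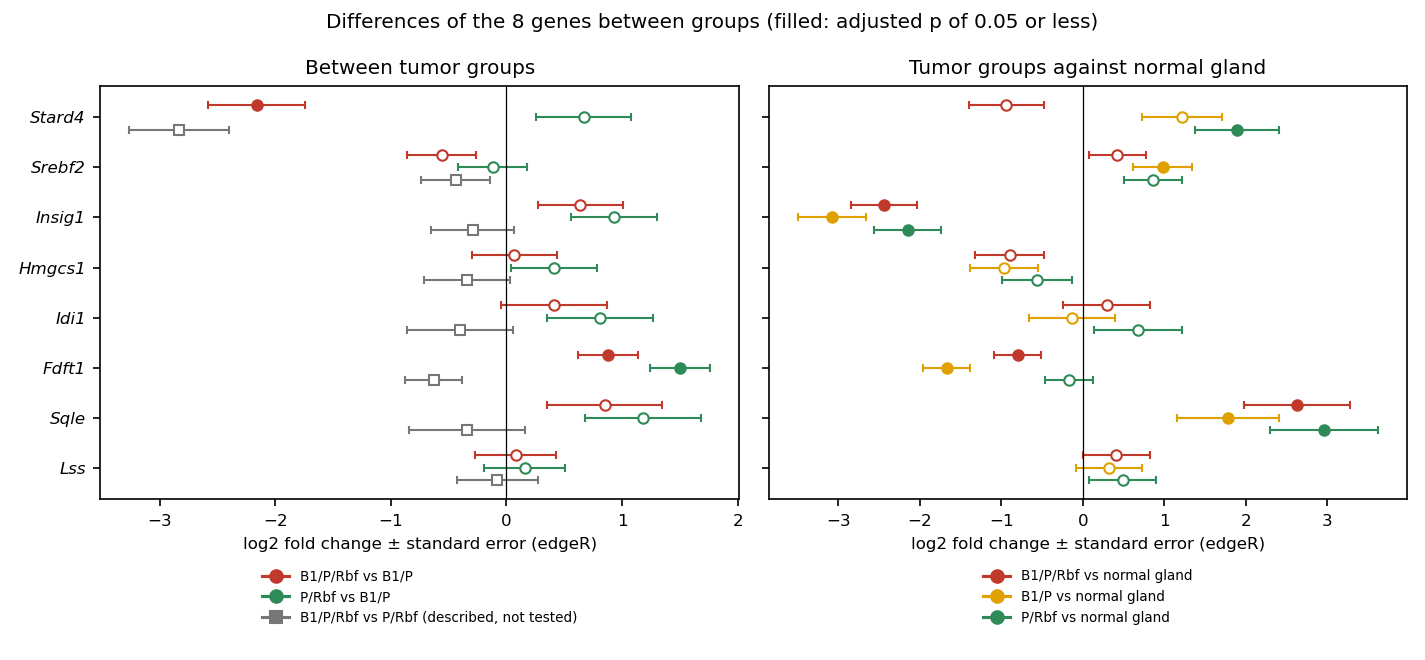
Log2 fold changes of the 8 genes with standard errors from the edgeR fit of 18 samples, between tumor groups (left) and against normal gland (right). Filled circles mark an adjusted p of 0.05 or less, and squares mark the contrast that was described without a test. Stard4 in B1/P/Rbf against B1/P is at -2.16, Fdft1 in P/Rbf against B1/P at 1.5, and Insig1 and Sqle lie on opposite sides of 0 in all 3 comparisons with gland.

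Counted over the set, Fdft1 was higher and Stard4 lower in B1/P/Rbf against B1/P, that is 1 of 8 genes each way, where 7.36% of all 19186 genes were called higher and 9.29% lower. In P/Rbf against B1/P, 1 of 8 was higher (Fdft1, with 8.43% of all genes called higher) and 0 were lower (10.8%). Of the 6 other genes in the first of these comparisons and 7 in the second, none passed. Against gland, 1 of 8 rose in B1/P/Rbf tumors (17.1% of all genes called higher) and 2 fell (20.0% lower). For B1/P tumors 2 rose (16.8%) and 2 fell (16.9%), and for P/Rbf tumors 2 rose (17.4%) and 1 fell (20.3%). The 3 comparisons with gland share the same 3 glands. Groups without overlap were found for 1 of the 8 genes in B1/P/Rbf against B1/P (10.5% of all genes), 1 in P/Rbf against B1/P (8.86%), and 4, 4 and 2 in B1/P/Rbf (50.5%), in B1/P (41.4%) and in P/Rbf tumors (46.5%) against gland. The median log2 fold change of the 8 genes was 0.24 for B1/P/Rbf and 0.74 for P/Rbf against B1/P, beside medians of -0.06 and -0.05 over all genes. Against gland it was -0.26 for B1/P/Rbf, 0.10 for B1/P and 0.58 for P/Rbf tumors, beside 0.05, 0.12 and 0.05 over all genes. These counts and medians include Stard4 in the tumors by which it was chosen. It gave the lower call and the lack of overlap in B1/P/Rbf against B1/P, and 1 of the 2 rises in P/Rbf tumors against gland. For the 7 other genes, 1 was called higher and 0 lower in each of the comparisons with B1/P, without overlap for 0 in B1/P/Rbf and 1 in P/Rbf tumors, and the medians were 0.41 and 0.81. Against gland, 1 of the 7 rose and 2 fell in B1/P/Rbf, 2 rose and 2 fell in B1/P, and 1 rose and 1 fell in P/Rbf tumors, with 3, 3 and 2 without overlap. The medians against gland were then 0.29, -0.13 and 0.49, so that the first pair changed sign.

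In B1/P/Rbf against P/Rbf, the contrast behind the choice, all 8 log2 fold changes were below 0. They were -2.83 for Stard4, -0.63 (SE 0.25) for Fdft1, -0.44 (SE 0.30) for Srebf2, -0.40 (SE 0.46) for Idi1, -0.34 for Hmgcs1 (SE 0.37) and Sqle (SE 0.50), -0.29 (SE 0.36) for Insig1 and -0.08 (SE 0.35) for Lss. Apart from Stard4, the groups overlapped for each gene. The common sign did not hold in every setting. In 6 fits with 1 sample left out (B1/P/Rbf tumor 1, 3 or 5, or P/Rbf tumor 1, 2 or 3), 7 of the 8 were below 0. Without TMM scaling Lss was 0.03, and with a term for the library sets only Stard4 (-1.82) and Fdft1 (-0.12) stayed below 0, while Idi1 reached 1.35, Hmgcs1 0.54, Sqle 0.50, Srebf2 0.41, Insig1 0.25 and Lss 0.06. Over all genes, 0.281% were called in this contrast and 3.02% did not overlap.

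The B1/P tumors, which alone would fall into both of the inferred library sets, also differed among themselves. For 7 of the 8 genes both tumors of set 2 (B1/P tumors 4 and 5) were above all 3 of set 1, as were 12.9% of all genes tested. Stard4 was at 52.7 and 55.7 CPM in set 2 and 21.9 to 31.6 CPM in set 1, Srebf2 at 306 and 318 against 103 to 212 CPM, and Idi1 at 68.2 and 126 against 23.9 to 38.4 CPM. Lss was the exception, at 43.6 and 49.5 against 21.9 to 52.6 CPM. With 2 and 3 tumors, an effect of the library sets and differences between mice cannot be told apart.

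Around these 8 genes, a list of 55 genes of sterol synthesis, sensing, transport, efflux and fatty acid synthesis was read from the same fit. In B1/P/Rbf against B1/P tumors 2 of the 55 were higher and 5 lower (7.36% and 9.29% of all genes), and in P/Rbf against B1/P 2 were higher and 4 lower (8.43% and 10.8% of all genes). The shares of the list called lower were thus near or below those of all genes. Of 21 synthesis enzymes, Fdft1 and Sc5d, a late-step desaturase (95.7 ± 47.1 CPM in B1/P/Rbf, 53.6 ± 15.2 CPM in B1/P, SD, n = 5 each), were higher in B1/P/Rbf tumors (Sc5d 0.84, SE 0.27, adjusted p = 0.0452, edgeR). Fdft1 and Cyp51, the lanosterol demethylase (47.8 ± 19.5 and 89.3 ± 38.8 CPM, n = 5 each), were higher in P/Rbf tumors (Cyp51 0.90, SE 0.31, adjusted p = 0.0481). No synthesis enzyme was lower in either comparison. The Sc5d call was lost in 15 of 25 alternatives and the Cyp51 call in 18.

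Of the 11 uptake and transport genes, 4 were lower in B1/P/Rbf and 3 in P/Rbf tumors against B1/P (9.29% and 10.8% of all genes), and of the 8 efflux and storage genes 1 was lower in each. The 4 include Stard4, which was chosen through these B1/P/Rbf tumors. Vldlr, a lipoprotein receptor, averaged 112 ± 73.7 CPM among B1/P tumors, 16.5 ± 12.1 CPM among B1/P/Rbf and 3.97 ± 3.68 CPM among P/Rbf tumors (n = 5 each). It fell by 2.75 (SE 0.65, adjusted p = 0.00859) and by 4.81 (SE 0.71, adjusted p = 0.000621) on the log2 scale against B1/P (edgeR). Scarb1, the receptor for high-density lipoprotein, fell by 1.16 in B1/P/Rbf (SE 0.27, adjusted p = 0.00848) and by 1.15 in P/Rbf tumors (SE 0.27, adjusted p = 0.00846). Npc1, which moves cholesterol out of lysosomes, fell by 1.36 (SE 0.33, adjusted p = 0.00991) and by 1.02 (SE 0.32, adjusted p = 0.0361). Abca1, the pump that loads cholesterol onto apolipoproteins, fell by 2.14 (SE 0.48, adjusted p = 0.00632) and by 2.44 (SE 0.48, adjusted p = 0.00313). Stard4 was the only gene of the list other than these that was called lower in B1/P/Rbf against B1/P. It was 0.67 above B1/P in P/Rbf tumors, by which it was also chosen, and did not pass the test. In P/Rbf tumors the Npc1 call was lost in 10 of 25 alternatives, and the Scarb1 call in a fit of the 2 groups alone (adjusted p = 0.052). Summed fibroblast markers (7 genes) were at 2540 to 12800 CPM among B1/P, 826 to 4720 CPM among B1/P/Rbf and 1250 to 4000 CPM among P/Rbf tumors. Basal epithelial markers (6 genes) were at 359 to 2180, 52.4 to 335 and 75.9 to 1450 CPM in the same order, and macrophage markers (7 genes) at 279 to 1250, 163 to 591 and 197 to 444 CPM. Of these 3 lists 1, 1 and 0 genes were called lower in B1/P/Rbf, and 3, 1 and 2 in P/Rbf tumors against B1/P. Of 6 skeletal muscle markers, 4 and 5 were called lower (median log2 fold change -6.56 and -5.73). Their sums were 0.804 to 591 CPM (median 5.91) in B1/P and 4.88 to 22.3 CPM (median 14.0) in B1/P/Rbf tumors. In P/Rbf tumors they were 0.23 to 3.13 CPM (median 2.61). The 591 CPM was that of B1/P tumor 5, and the B1/P median was below that of B1/P/Rbf. That tumor was also the highest of its group in adipocyte markers (88.7 CPM), Stard4 and Srebf2. The part of the marker lists in the transport and efflux differences was not tested. In B1/P/Rbf against P/Rbf, none of the 47 other genes of the list was called by edgeR (0.281% of all genes), none by limma-voom (0.136%) and 2, Vldlr and Ebp, by DESeq2 (5.36%). At an unadjusted p under 0.05 there were 9 by edgeR (16.1% of all genes) and 4 by limma-voom (12.3%).

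Against gland, calls among the listed genes went both ways. Of the 21 synthesis enzymes, 6 rose and 2 fell in P/Rbf tumors, 4 rose and 6 fell in those of B1/P/Rbf, and 4 rose and 4 fell in those of B1/P. Beside these, 16.8% to 17.4% of all genes were called higher and 16.9% to 20.3% lower. Both counts in B1/P and the rises in B1/P/Rbf were near the shares of all genes. They are not read as a result about the enzymes. Of 8 fatty acid synthesis genes, which adipocytes express strongly, none rose and 7 fell in each tumor group, with median log2 fold changes between -3.32 and -2.93. Without TMM scaling the median of all genes against gland moved by 0.27 for P/Rbf, 0.35 for B1/P and 0.37 for B1/P/Rbf tumors.

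**Figure D3:**
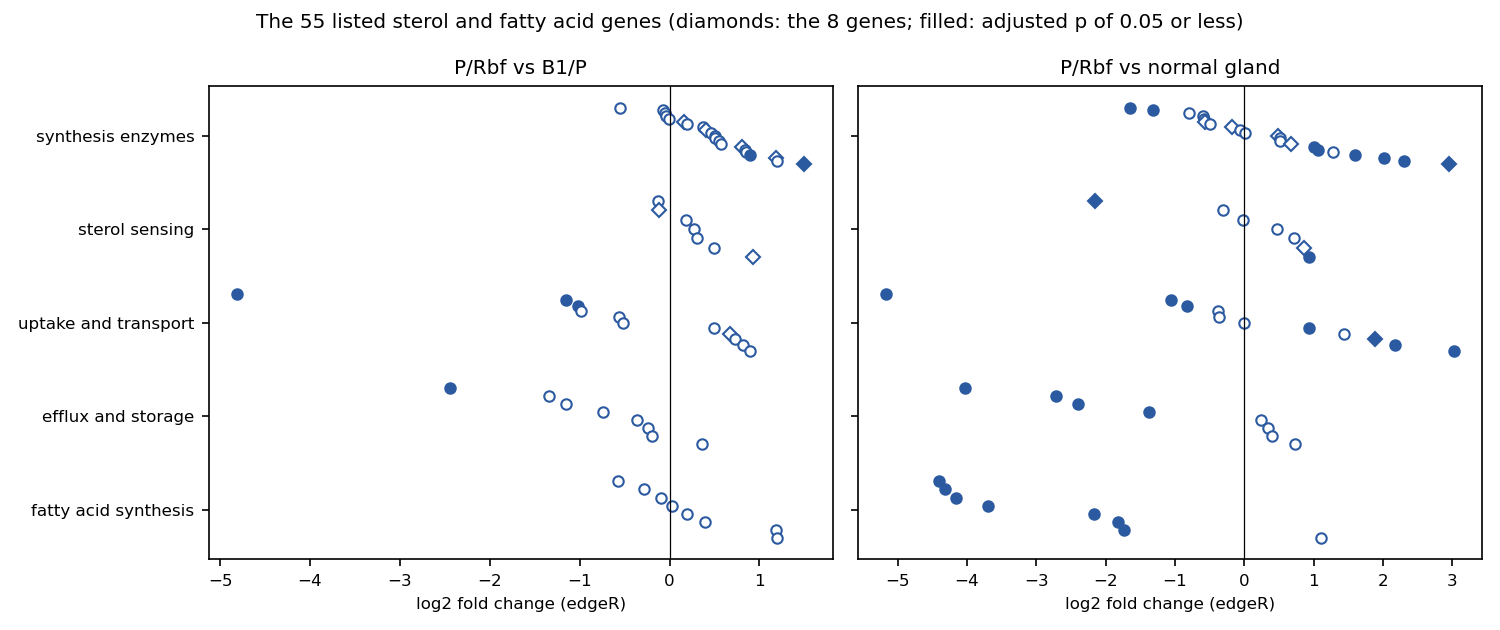
Log2 fold changes (edgeR) of the 55 listed genes by role in P/Rbf tumors against B1/P tumors (left) and against normal gland (right). Diamonds are the 8 genes, and filled symbols have an adjusted p of 0.05 or less. Against gland, 7 of 8 fatty acid synthesis genes fell, while synthesis enzymes lie on both sides of 0.

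Within tumor groups, the deviations of log2 CPM from the group mean were compared over the 15 tumors. The 21 pairs of genes without Stard4 all had positive correlations, from 0.14 to 0.89 with a median of 0.39. The closest were Hmgcs1 with Insig1 (r = 0.89), Hmgcs1 with Idi1 (0.83) and Insig1 with Fdft1 (0.77). These are descriptions, since the tumors share groups, library sets and scaling. In B1/P, tumor 4 was the highest of its group for 5 of the 8 genes (Hmgcs1, Sqle, Idi1, Insig1 and Fdft1), in B1/P/Rbf tumor 4 for 4 (Hmgcs1, Sqle, Idi1 and Srebf2) and in P/Rbf tumor 1 for 4 (Hmgcs1, Idi1, Insig1 and Srebf2).

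The deviations of Stard4 gave r = 0.00 with Hmgcs1, -0.00 with Fdft1, 0.15 with Idi1, -0.08 with Insig1, -0.27 with Lss and -0.31 with Sqle (rho -0.01, 0.05, 0.34, -0.10, -0.12 and -0.25). The p values of r from 100000 permutations within groups were 0.993, 0.998, 0.572, 0.87, 0.276 and 0.374, and all adjusted values were 0.873 or above. Srebf2 was the nearest of the set, with r = 0.63 (permutation p = 0.0122, adjusted over 7 genes 0.0857) and rho = 0.67 (p = 0.0153, adjusted 0.107). Neither passed the correction. The permutations did not keep the inferred library sets apart. For Stard4 and Srebf2, the B1/P tumors of set 2 lay above those of set 1. Without the 2 tumors farthest from the median of Stard4 (B1/P/Rbf tumor 2 and P/Rbf tumor 3) r was 0.47 for Srebf2, 0.45 for Idi1 and between -0.09 and 0.18 for the other 5 genes. P/Rbf tumor 3 was lowest of its group for Stard4 (13.0 CPM) and Srebf2 (112 CPM) and highest for Sqle (395 CPM).

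Among 12158 genes whose tumor mean reached 5 CPM, those whose deviations were most like those of Stard4 were Map2 (r = 0.93), Kif21a (0.92), Smagp (0.88), Ccdc97 (0.88) and Ly6e (0.87), each over 15 tumors. Their group differences went both ways. Map2 was -2.08 and Kif21a -1.39 in B1/P/Rbf against B1/P on the log2 scale, while Smagp was 1.27, Ly6e 0.67 and Ccdc97 0.58. Srebf2 ranked 282 in that order. The 5 genes were picked as the highest of 12158, and their r was not tested. It was not examined without the tumors farthest from the median of Stard4.

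**Figure D4:**
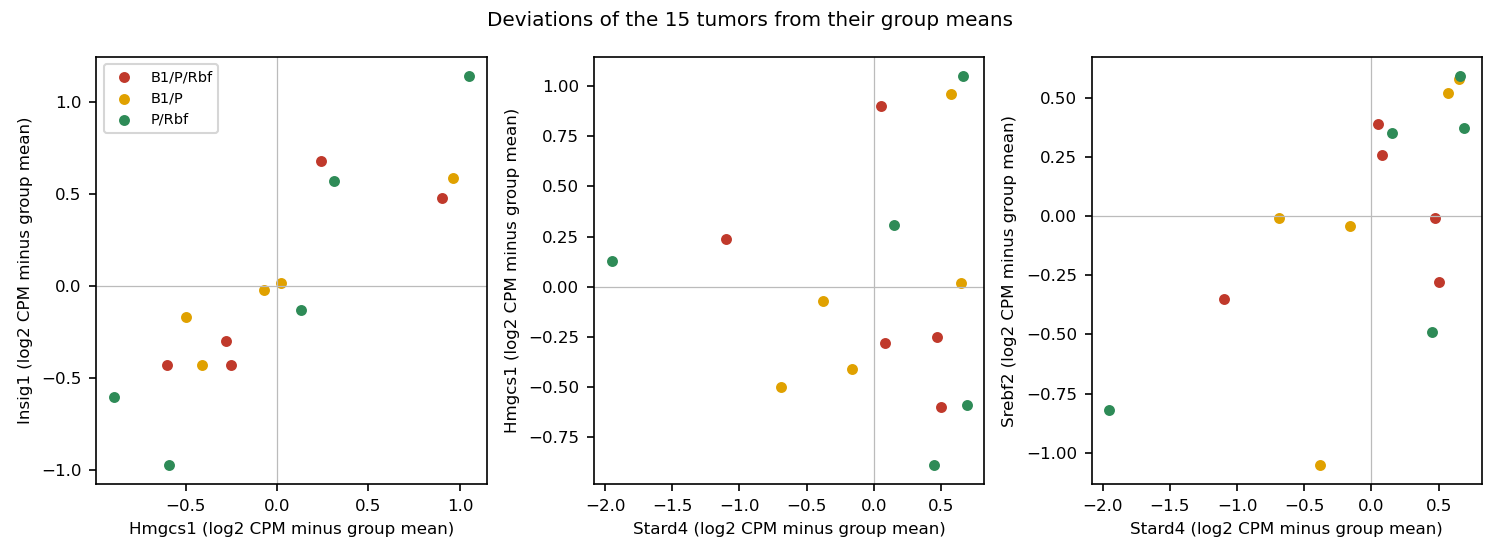
Deviations of log2 CPM from the group mean in the 15 tumors, for Insig1 against Hmgcs1, Hmgcs1 against Stard4 and Srebf2 against Stard4. Each point is a tumor, colored by group. The first pair lies along a line (r = 0.89), the second shows no trend (r = 0.00), and in the third (r = 0.63) P/Rbf tumor 3 lies at the lower left.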

How the data were processed

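RNA was measured in 15 mammary tumors and 3 normal mammary glands, 1 mouse each. The authors trimmed paired reads of stranded mRNA libraries with cutadapt 1.18 and deposited RSEM 1.3.0 expected counts per gene (versions per the submitters' processing notes). The methods name a human reference, yet all 55450 identifiers are those of GENCODE M21 (mouse GRCm38), from which gene positions were taken. Of the deposited values, 5.61% are not whole, since RSEM divides reads shared by several genes. The depth of 27661173 to 37794889 counts limits precision less than the spread between mice: replicates differed by chi-square values of 25.0 to 516 per degree of freedom.

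The rounded counts were tested with edgeR 4.0.16 (R 4.3.3): filterByExpr with a minimum count of 10 kept 19186 genes, and 1 quasi-likelihood fit of 18 samples with TMM scaling gave 6 comparisons, with Benjamini-Hochberg adjustment and a threshold of 0.05. Standard errors were derived from the F statistic. CPM used the TMM-scaled totals, and log2 CPM a prior count of 2. The code was tested on simulated data. Single values were compared within library sets by exact two-sided permutation tests of the difference of means (Python 3.11.15), a test added after the data had been seen. SciPy 1.17.1 gave the ranks and the adjusted p values of the correlations. Alternatives were DESeq2 1.42.0, limma-voom with quantile scaling (limma 3.58.1), no TMM, no filter, a filter of 6 CPM in 6 samples, only the groups compared, a term for the library sets, and each sample left out in turn.

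The 8 genes, the pathway and marker lists and the tests were chosen with earlier results of these data known. Named beside the 8 genes were every listed gene called between 2 tumor groups, and the 5 genes most like Stard4 within groups. Some genes of the list enter its counts but are not reported singly.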

Additional observations from a re-analysis of the deposited data

Results flagged for a closer look

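Of 24 sets of 5 tumors (8 genes in 3 groups), 4 held a lowest tumor whose gap to the next, divided by the range (both of log2 CPM), passed the 0.710 of Dixon's test. Chance gives about 1 in 20 such sets. Stard4 was at 3.64 CPM in B1/P/Rbf tumor 2, with the others at 8.14 to 11.1 CPM (ratio 0.718), and at 13.0 CPM in P/Rbf tumor 3, with the others at 56.2 to 81.6 CPM (0.797). Idi1 was at 44.7 CPM in P/Rbf tumor 4, with the others at 99.3 to 134 CPM (0.729). Lss was at 21.9 CPM in B1/P tumor 2, with the others at 43.6 to 52.6 CPM (0.786).

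The change from normal gland differed between tumor groups for 2 of the genes (edgeR quasi-likelihood test with Benjamini-Hochberg adjustment). For Stard4 the change was lower by a log2 difference of -2.16 in B1/P/Rbf compared with B1/P (adjusted p = 0.00287), on the B1/P/Rbf tumors by which Stard4 was chosen, so this is not an independent test. For Fdft1 it was higher by 0.88 in B1/P/Rbf (adjusted p = 0.027) and by 1.5 in P/Rbf tumors (adjusted p = 0.00142), each against B1/P. As the glands are common to both sides, these equal the differences between the tumor groups.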

How the results depend on the processing

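Over 25 alternatives, the log2 fold change of Stard4 in B1/P/Rbf against B1/P ran from -2.31 to -1.67 and passed in each (adjusted p 9.14e-06 to 0.0197), on tumors by which Stard4 was chosen. Fdft1 in P/Rbf against B1/P, and Sqle in B1/P/Rbf and P/Rbf against gland also passed in each. So did Insig1 in B1/P and P/Rbf and Fdft1 in B1/P, all against gland. Stard4 in P/Rbf against gland passed in each as well, again on tumors by which it was chosen. No called value changed sign. Of the 55 listed genes, 6 were called in P/Rbf against B1/P, where 8.43% of all genes were called higher and 10.8% lower. In a fit of the 2 groups alone 3 were called. In B1/P/Rbf against P/Rbf 0 of 47 were called (0.281% of all genes), or 2 by DESeq2 (5.36%). In B1/P/Rbf against gland 31 of the 55 were called, where 17.1% of all genes were called higher and 20.0% lower. With a term for the library sets 16 were called, and with 1 sample left out 18 to 31, the fewest without gland 2. No share over all genes is given for the fit of 2 groups, the library-set term or the fits with 1 sample left out. These smaller counts are therefore not read as a result about the list, and the causes of the changes in count were not tested. The counts in the other comparisons stayed within 1.5 times. No paired analysis was possible because no number links a mouse of one group to a mouse of another. The 8 genes all have over 100 counts in each sample. The groups hold only 5 tumors or 3 glands each, and the part of group size in the calls was not tested.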
